A study of Bos taurus and other sequences with 9 samples.

Results

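The 4 miRNAs hsa-miR-203a, hsa-miR-205-5p, hsa-miR-184 and hsa-miR-31-5p, which are best known from epithelia, were followed through 9 samples of cell culture media. They were taken by name from the 425 miRNAs of the deposited miRNA tables. They were chosen by their spike-in normalized values in all 9 samples, because the level of some of them changed little where nearly all other miRNAs were far lower after the removal of serum vesicles. The values of the 4 miRNAs are therefore given as a description, with counting errors and without tests.

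Small RNA was sequenced from the extracellular vesicle (EV) preparation of each medium. FBS was DMEM/F12 medium with untreated fetal bovine serum, from Sigma in FBS-1 and from Gibco in FBS-2. UC-dFBS was prepared from the same sera by ultracentrifugation followed by filtration, and UF-dFBS from the same sera as the flow-through of a centrifugal ultrafilter, so that the samples numbered 1 share the Sigma serum and those numbered 2 the Gibco serum. SBI-dFBS was commercial EV-depleted FBS of System Biosciences in 2 lots, whose source serum is not given. These 8 FBS-based samples shared the basal medium. StemPRO was a defined serum- and xeno-free medium of Gibco for mesenchymal stem cells with another basal medium, and its 1 sample has no replicate. The media held no cells, and each sample was 1 library. Since both samples of each medium differ in serum or lot, their SD holds that difference as well. In such bulk preparations, fewer vesicles or other carriers with a miRNA and less of it per carrier cannot be told apart.

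miRNAs are short RNAs that guide Argonaute proteins to partly complementary sites in messenger RNAs and lower their stability and translation. The miR-203 family is abundant in the upper layers of the epidermis, where it restrains p63 and favours the exit from proliferation. miR-205 is abundant in basal and squamous epithelial cells and acts with the miR-200 family against the ZEB repressors of E-cadherin. miR-184 is abundant in the corneal and lens epithelium, and miR-31 rises in proliferating keratinocytes and at wound edges. In blood serum, by contrast, miRNAs of the liver, red cells, white cells and platelets are usually abundant. The deposited names are those of human miRNAs, since the authors mapped the reads to human sequences, and a human and a bovine miRNA of the same sequence share 1 count. Genome positions were not given with the miRNA names. In the bovine RefSeq annotation (assembly ARS-UCD2.0) 3 of the 4 genes were listed. MIR205 lies between the coding genes CAMK1G and PLXNA2, MIR184 overlaps LOC112443131 between RASGRF1 and ANKRD34C, and MIR31 overlaps IFNE beside MTAP.

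Counts were read on 2 scales. The deposited count of a miRNA is the number of collapsed reads, and the spike-in normalized count is that count divided by the sample's factor, the number of counts that 1 spike-in unit gave in that library. The factor was 3.78 to 9.04 for the FBS, SBI-dFBS and UC-dFBS libraries, whereas UF-dFBS-1 had 55.2, UF-dFBS-2 had 24.0 and StemPRO had 108. The libraries with little miRNA thus read more deeply per spike-in unit, and their values carry smaller counting errors. All miRNAs together had 937 to 203755 counts per sample, and their spike-in normalized total went from 42063 in FBS-1 down to 39.0 for UF-dFBS-2 and 13.3 for StemPRO. For a count of 0, and where stated for any count below 3, a floor of 3 counts was used. It equals 0.0278 spike-in normalized counts in StemPRO and 0.794 in SBI-dFBS-2. All intervals given are 95% intervals, exact Poisson for levels, exact binomial for ratios of 2 samples and Wilson for shares, and they cover counting error only.

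hsa-miR-203a was the most abundant of the 4 miRNAs in every sample, and its level differed by no more than 2.63-fold between any of the 9 samples. The authors found it mainly as short inserts and propose that it might be an experimental artifact. Insert lengths were not analysed here, and this was not tested. The spike-in normalized count of FBS-1 was 7.02 (interval 4.86 to 9.81) and that of FBS-2 was 5.37 (3.83 to 7.31), while SBI-dFBS-1 had 4.09 (2.88 to 5.64) and SBI-dFBS-2 had 8.21 (5.58 to 11.6). UC-dFBS-1 had 3.52 (2.23 to 5.28), UC-dFBS-2 had 3.22 (2.02 to 4.88), UF-dFBS-1 had 5.11 (4.53 to 5.74), UF-dFBS-2 had 3.12 (2.46 to 3.91) and StemPRO had 3.22 (2.89 to 3.58). The samples of UC-dFBS, UF-dFBS and StemPRO lay below both FBS samples, while the SBI-dFBS samples lay on either side of them. By medium the mean was 6.19 ± 1.17 in FBS, 6.15 ± 2.91 in SBI-dFBS, 4.11 ± 1.40 in UF-dFBS and 3.37 ± 0.208 in UC-dFBS (SD, n = 2 each), followed by StemPRO. In this order, no medium differed from the next by more than the larger SD of the pair. The FBS mean, however, lay above those of UF-dFBS and UC-dFBS by more than the larger SD of each pair. The deposited counts behind these levels were 34 and 40 for FBS, 37 and 31 for SBI-dFBS, 23 and 22 for UC-dFBS, 282 and 75 for UF-dFBS and 348 for StemPRO.

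hsa-miR-205-5p was at a lower level, and rested on few counts outside the ultrafiltered and serum-free samples. FBS-1 had 1 deposited count and FBS-2 had 9, the SBI-dFBS samples had 9 and 4, the UC-dFBS samples 3 and 2, the UF-dFBS samples 62 and 18, and StemPRO had 60. In spike-in normalized counts FBS-1 had 0.206 (0.00523 to 1.15) and FBS-2 had 1.21 (0.552 to 2.29), the SBI-dFBS samples had 0.995 and 1.06, and the UC-dFBS samples 0.459 and 0.293. UF-dFBS-1 had 1.12 (0.861 to 1.44), UF-dFBS-2 had 0.749 (0.444 to 1.18) and StemPRO had 0.555 (0.424 to 0.715). The lowest and the highest value were those of the FBS samples, and all other samples lay between them. The mean was highest in SBI-dFBS at 1.03 ± 0.0451, followed by 0.936 ± 0.264 in UF-dFBS and 0.707 ± 0.708 in FBS (SD, n = 2 each). StemPRO came next, and UC-dFBS had the lowest mean at 0.376 ± 0.117 (SD, n = 2). FBS did not differ from either neighbour beyond its own SD, nor SBI-dFBS from UF-dFBS beyond the SD of UF-dFBS. UC-dFBS lay below StemPRO by more than its SD, which rests on 3 and 2 counts. The intervals of UC-dFBS-1 (0.0946 to 1.34) and UC-dFBS-2 (0.0355 to 1.06) both held the StemPRO value.

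hsa-miR-184 was highest in FBS-1 and had low values in the other 8 samples, which rest on 1 or 2 counts outside UF-dFBS and StemPRO. FBS-1 had 11 deposited counts and FBS-2 had 2, each SBI-dFBS and UC-dFBS sample had 1, the UF-dFBS samples had 11 and 5, and StemPRO had 23. The spike-in normalized count of FBS-1 was 2.27 (1.13 to 4.06) and that of FBS-2 was 0.268 (0.0325 to 0.969). The SBI-dFBS samples had 0.111 and 0.265, the UC-dFBS samples 0.153 and 0.147, the UF-dFBS samples 0.199 and 0.208, and StemPRO had 0.213 (0.135 to 0.319). The interval of FBS-1 did not reach any of the other values, but it overlapped the interval of SBI-dFBS-2 (0.00670 to 1.48), which rests on 1 count. By medium the mean was 1.27 ± 1.42 in FBS, 0.204 ± 0.00636 in UF-dFBS, 0.188 ± 0.109 in SBI-dFBS and 0.150 ± 0.00452 in UC-dFBS (SD, n = 2 each), and the small SD of UC-dFBS rests on 1 count in each sample. FBS did not differ from the media below it by more than its SD.

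hsa-miR-31-5p was counted in 5 of the 9 samples, and its highest levels were in the untreated sera. FBS-1 had 11 deposited counts and FBS-2 had 7, both SBI-dFBS samples had 0, each UC-dFBS sample had 1, UF-dFBS-1 had 15, and UF-dFBS-2 and StemPRO had 0. In spike-in normalized counts FBS-1 had 2.27 (1.13 to 4.06), FBS-2 had 0.939 (0.378 to 1.93), the UC-dFBS samples had 0.153 and 0.147, and UF-dFBS-1 had 0.272 (0.152 to 0.448). Both FBS samples lay above all others. The mean was 1.60 ± 0.942 in FBS, 0.150 ± 0.00452 in UC-dFBS and 0.136 ± 0.192 in UF-dFBS (SD, n = 2 each), and UC-dFBS and UF-dFBS differed by less than the SD of UF-dFBS. The FBS mean was 57.8-fold above a floor of 3 counts in StemPRO. It was 2.85-fold above the mean of the per-library floors in SBI-dFBS. These 2 ratios leave out the counting error of FBS. By the exact intervals, StemPRO had up to 0.143 times the level of UF-dFBS-1, and UF-dFBS-1 had at least 1.56 times that of UF-dFBS-2.

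**Figure D1:**
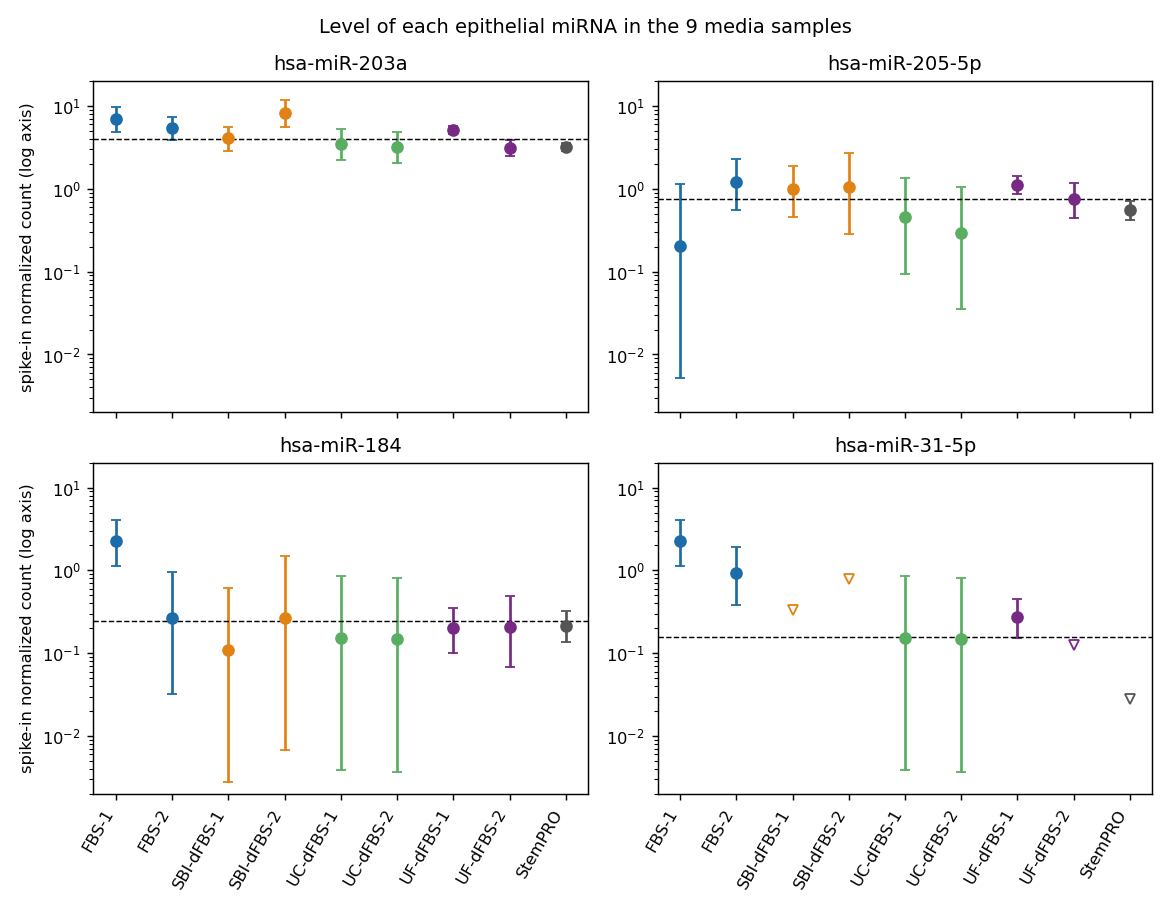
Spike-in normalized count (log axis) of each epithelial miRNA in the 9 media samples, coloured by medium. Points are samples, bars are exact 95% Poisson intervals, open triangles stand at the 3-count floor of samples with a count of 0, and dashed lines mark the pooled level (all counts over all spike-in factors). hsa-miR-203a stays between 3.12 and 8.21 in all samples, and hsa-miR-31-5p stands above its line in both FBS samples.

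The question of a constant level per library was put to the counts directly. For each miRNA a pooled level was computed as its counts in the 9 samples over the sum of the 9 spike-in factors, and the count that this level gives in each sample was set beside the observed one. The pooled level of hsa-miR-203a was 3.95 spike-in normalized counts, from 892 counts, and the observed counts were 0.790 to 2.08 times those it gives. FBS-1 had 34 counts where 19.1 were given by the pooled level, SBI-dFBS-2 had 31 where 14.9 were given, and StemPRO had 348 where 427 were given. The interval held the pooled level in 4 of 9 samples, with FBS-1, SBI-dFBS-2 and UF-dFBS-1 above it and UF-dFBS-2 and StemPRO below it. The level of hsa-miR-203a was therefore even within a few fold but not constant within counting error.

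For hsa-miR-205-5p, with a pooled level of 0.744 from 168 counts, the intervals of 7 of 9 samples held the level. UF-dFBS-1 was above it and StemPRO below it, and the observed counts were 0.277 to 1.62 times those given. For hsa-miR-184, with a pooled level of 0.248 from 56 counts, 8 of 9 samples held it, and FBS-1 was 9.16 times above. For hsa-miR-31-5p, with a pooled level of 0.155 from 35 counts, 5 of 9 samples held it. FBS-1 was 14.6 times and FBS-2 6.06 times above, and StemPRO had 0 counts where 16.7 were given. The pooled level weighs each sample by its factor, so StemPRO (108), UF-dFBS-1 (55.2) and UF-dFBS-2 (24.0) set most of it. The SBI-dFBS and UC-dFBS samples had 1 count of hsa-miR-184 each, and their wide intervals could hardly miss the level. These comparisons use the values by which the members were chosen and are a description. Among the 166 miRNAs with at least 35 counts, the median number of samples that held the pooled level was 1 of 9, and 2 miRNAs, hsa-miR-184 and hsa-miR-205-5p, had 6 or more. Low counts give wide intervals, which hold a level more easily.

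**Figure D2:**
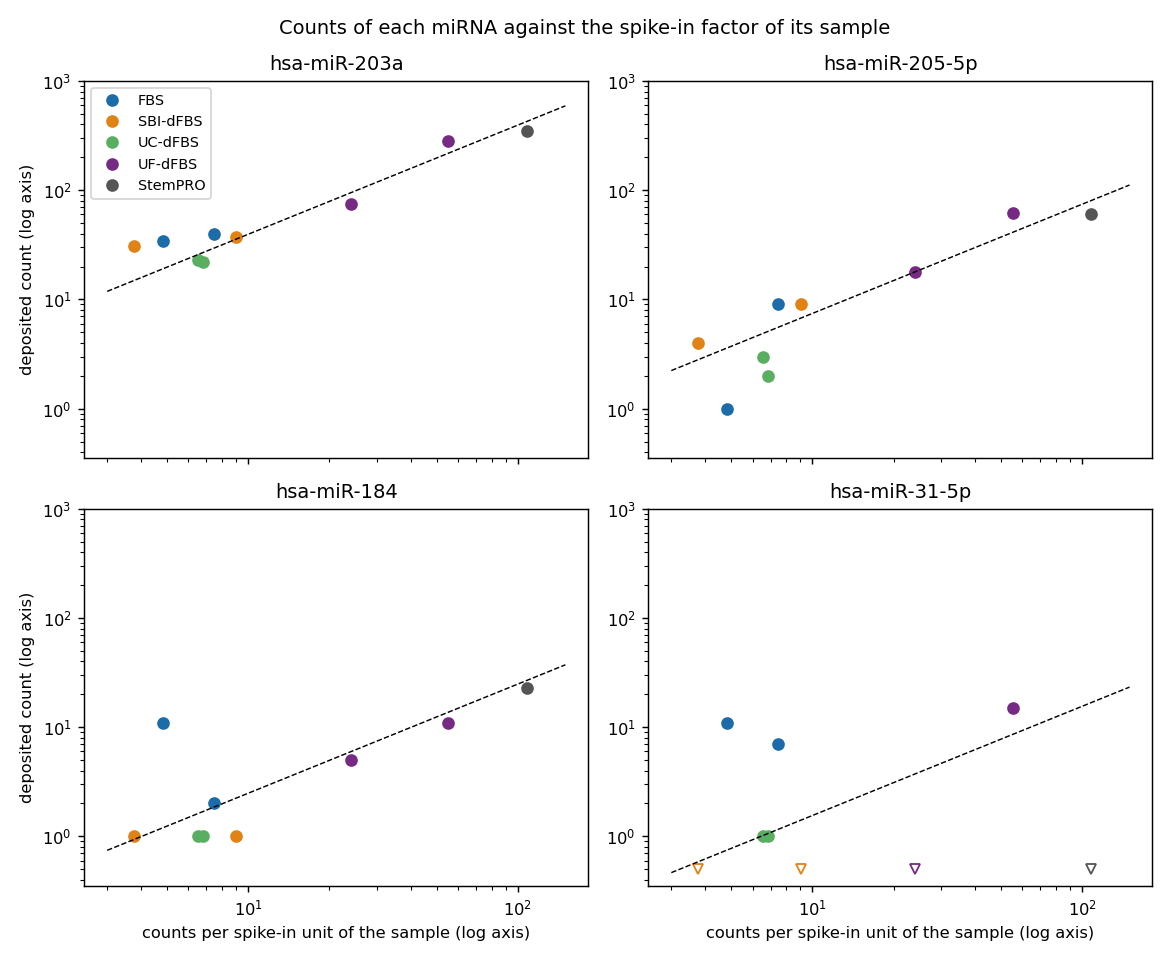
Deposited count (log axis) of each epithelial miRNA against the spike-in factor of its sample, in counts per spike-in unit (log axis), coloured by medium. Dashed lines show the count that the pooled level gives, and open triangles at 0.5 stand for a count of 0. Counts of hsa-miR-203a follow the line from 22 to 348, whereas the FBS samples of hsa-miR-31-5p and FBS-1 of hsa-miR-184 lie above it.

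Compared with other miRNAs, the spread of hsa-miR-203a, hsa-miR-205-5p and hsa-miR-184 was small. Over the 8 FBS-based samples, 74 miRNAs had at least 1 count in every sample, and the highest spike-in normalized count of a miRNA was a median of 823 times its lowest. For hsa-miR-203a this ratio was 2.63 (1.67 to 4.04), the smallest of the 74. It was 5.85 (0.810 to 256) for hsa-miR-205-5p, the second smallest, and 20.5 (2.99 to 884) for hsa-miR-184, at place 4. The muscle miRNA hsa-miR-1, with a ratio of 15.0, stood between the latter, and 69 of the other 71 miRNAs had ratios above 100. The ratio of hsa-miR-184 rests on FBS-1, and without it the ratio was 2.43. The intervals of these ratios leave out that the 2 samples were picked as the highest and the lowest. For hsa-miR-31-5p, which was counted in fewer samples, every count below 3 was raised to the floor of 3 counts. The ratio was then 18.2 over the 8 samples, 7.52 without FBS-1 and 8.36 without UF-dFBS-2. The value of 8.36 depends on this floor, since it takes UF-dFBS-1 (0.272) as the lowest sample. The observed values of UC-dFBS-1 (0.153) and UC-dFBS-2 (0.147) were lower, and FBS-1 had 14.8 times the level of UC-dFBS-1. The ratios taken with the floor leave out the counting error of the highest value. With StemPRO added, hsa-miR-203a, hsa-miR-205-5p and hsa-miR-184 took places 1, 2 and 3 of 56 miRNAs, against a median of 2436 and a ratio of 34.0 for hsa-miR-1. These are the values by which the miRNAs were chosen.

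**Figure D3:**
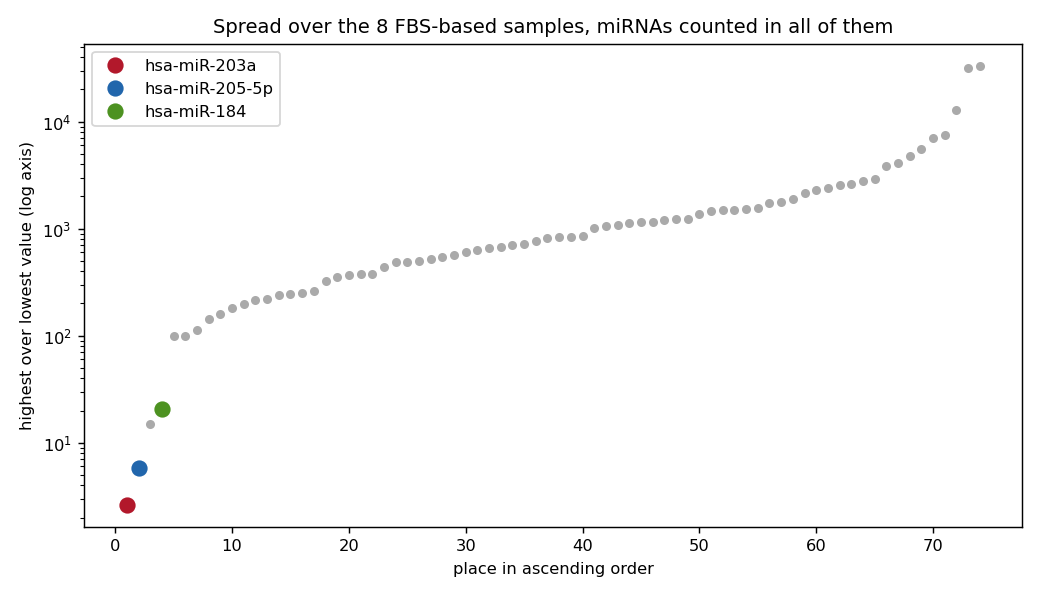
Highest over lowest spike-in normalized count (log axis) over the 8 FBS-based samples for the 74 miRNAs counted in all of them, in ascending order. Grey points are other miRNAs. hsa-miR-203a at 2.63 and hsa-miR-205-5p at 5.85 have the smallest ratios, and hsa-miR-184 at 20.5 is at place 4.

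The epithelial miRNAs made up a larger share of the miRNA counts where total miRNA was low. In FBS-1, hsa-miR-203a held 0.0167% of all miRNA counts (0.0119 to 0.0233%) and was at place 120 by count, and in FBS-2 it held 0.0322% at place 103. The SBI-dFBS samples had shares of 0.0427 and 0.0506%, and the UC-dFBS samples 0.0453 and 0.0837%. In UF-dFBS-1 it was 6.71% (5.99 to 7.50%) and in UF-dFBS-2 8.0% (6.43 to 9.92%), at place 2 in both. In StemPRO hsa-miR-203a was the most counted miRNA, with 24.2% (22.1 to 26.5%).

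The other members followed at lower shares. hsa-miR-205-5p went from 0.000491% of the miRNA counts in FBS-1, at place 271, to 1.47% and place 6 in UF-dFBS-1, 1.92% and place 10 in UF-dFBS-2, and 4.17% (3.26 to 5.33%) and place 5 in StemPRO. hsa-miR-184 held 0.00540% of FBS-1, 0.262 and 0.534% of the UF-dFBS samples and 1.60% of StemPRO (1.07 to 2.39%), where it was at place 15. hsa-miR-31-5p held 0.357% in UF-dFBS-1 (0.216 to 0.588%), and the 0 counts in StemPRO allow a share of up to 0.266%. All 4 together held 0.0280% of FBS-1 (0.0216 to 0.0362%), 8.80% of UF-dFBS-1 (7.98 to 9.70%), 10.5% of UF-dFBS-2 (8.66 to 12.6%) and 30.0% of StemPRO (27.7 to 32.4%). Their summed spike-in normalized count moved much less, from 11.8 for FBS-1 to 6.70 and 4.08 for the UF-dFBS samples and 3.99 for StemPRO.

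**Figure D4:**
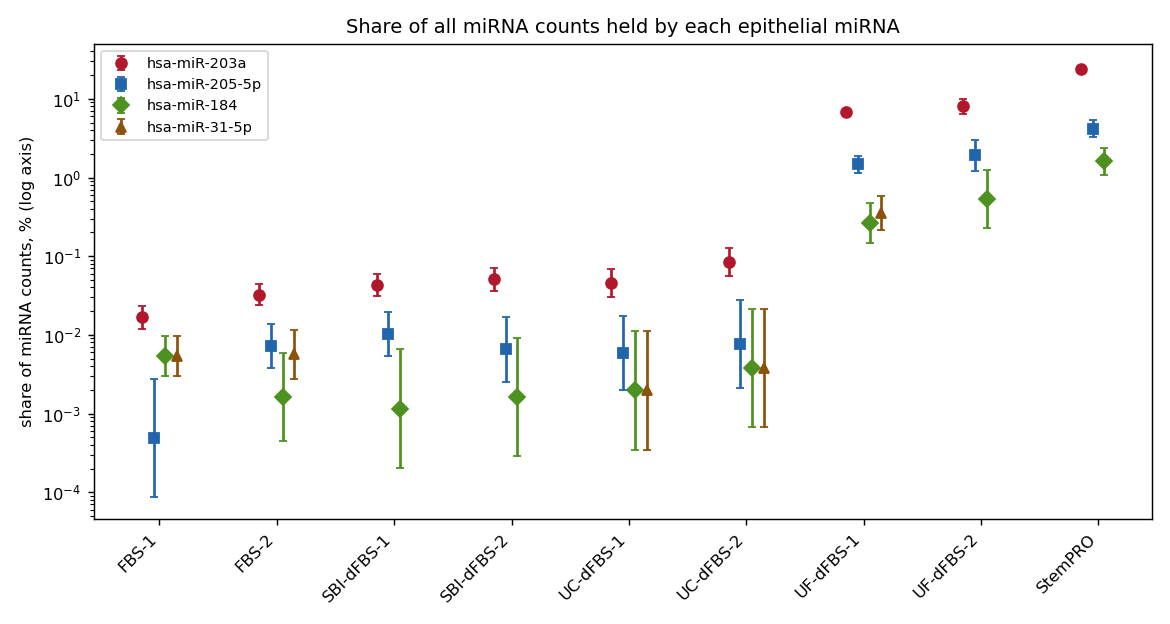
Share of all miRNA counts (percent, log axis) held by each epithelial miRNA in the 9 media samples, with Wilson 95% intervals; counts of 0 are not drawn. The share of hsa-miR-203a goes from 0.0167% in FBS-1 to 24.2% in StemPRO.

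Within the same serum, the depletion methods changed hsa-miR-203a little beside the total. After ultracentrifugation hsa-miR-203a had 0.501 times the FBS level in the Sigma serum (0.282 to 0.876) and 0.601 times in the Gibco serum (0.340 to 1.04), against 0.185 and 0.231 times for all miRNAs. After ultrafiltration it had 0.727 times the FBS level (0.509 to 1.07) and 0.582 times (0.391 to 0.877), against 0.00181 and 0.00234 times for all miRNAs. Both methods thus left similar amounts of hsa-miR-203a, with 1.45 times as much in UF-dFBS-1 as in UC-dFBS-1 (0.948 to 2.33) and 0.968 times in the Gibco serum (0.595 to 1.64). StemPRO had 0.631 times the hsa-miR-203a of UF-dFBS-1 (0.538 to 0.741) and 1.03 times that of UF-dFBS-2 (0.802 to 1.34). SBI-dFBS-1 had 0.498 times the hsa-miR-203a of SBI-dFBS-2 (0.301 to 0.831).

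The same ratios were less certain for the other members. hsa-miR-205-5p had 5.44 times the FBS level after ultrafiltration of the Sigma serum (0.941 to 218) and 0.621 times in the Gibco serum (0.265 to 1.57), and the wide interval of the former reflects 1 count in FBS-1. hsa-miR-184 had 0.0877 times the FBS level after ultrafiltration of the Sigma serum (0.0345 to 0.223) and 0.776 times in the Gibco serum (0.127 to 8.15). FBS-1 had 8.46 times the hsa-miR-184 of FBS-2 (1.85 to 78.6). StemPRO had 1.07 times the hsa-miR-184 of UF-dFBS-1 (0.501 to 2.43) and 1.02 times that of UF-dFBS-2 (0.380 to 3.44). hsa-miR-31-5p had 0.0674 times the FBS level after ultracentrifugation of the Sigma serum (0.00157 to 0.463) and 0.156 times in the Gibco serum (0.00346 to 1.22). After ultrafiltration it had 0.120 times the FBS level in the Sigma serum (0.0513 to 0.288), and in the Gibco serum the 0 counts of UF-dFBS-2 against 7 in FBS-2 gave a ratio of up to 0.215.

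The counts of the members were also set against each other within each sample. For each count of hsa-miR-205-5p there were 4.55 and 4.17 counts of hsa-miR-203a in the UF-dFBS samples and 5.80 in StemPRO, the samples with the most counts of both. hsa-miR-205-5p was 18.0% of the counts of the pair in UF-dFBS-1 (14.3 to 22.4%), and UF-dFBS-2 had 19.4% (12.6 to 28.5%) and StemPRO 14.7% (11.6 to 18.5%). Its share was 8.33 to 19.6% in the other samples except FBS-1, where it was 2.86% (0.506 to 14.5%). All these intervals overlapped, and outside UF-dFBS and StemPRO they rest on 1 to 9 counts of hsa-miR-205-5p. For each count of hsa-miR-184 there were 3.09 counts of hsa-miR-203a in FBS-1, 15.0 to 25.6 in the UF-dFBS samples and StemPRO, and up to 37 in SBI-dFBS-1, which rests on 1 count. FBS-1 thus had the highest ratio of hsa-miR-203a to hsa-miR-205-5p and the lowest to hsa-miR-184.

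Each medium was set against FBS across all miRNAs with edgeR's quasi-likelihood test on counts scaled by the spike-in factors, in the 8 FBS-based samples and the 163 miRNAs with at least 10 counts in at least 2 of them. All 4 members passed this filter, hsa-miR-203a in 8 of 8 samples, hsa-miR-205-5p through both UF-dFBS samples, and hsa-miR-184 and hsa-miR-31-5p each through FBS-1 and UF-dFBS-1. In UF-dFBS, where 98.2% of the miRNAs tested were called, all of them lower, the median log2 fold change was -8.67. A small change was not particular to the members. The non-member hsa-miR-4532 had -0.65 ± 0.97 (SE) and was not called, and hsa-miR-1 had -2.94 ± 0.90. The log2 fold change was 0.32 ± 1.02 (SE) for hsa-miR-205-5p, -0.58 ± 0.76 for hsa-miR-203a, -2.51 ± 1.1 for hsa-miR-184 and -3.24 ± 1.10 for hsa-miR-31-5p. They lay above the median by 8.98, 8.09, 6.16 and 5.42 on the log2 scale, in this order. These are again the values by which the members were chosen, and hsa-miR-205-5p passed the filter only through UF-dFBS, so no call or rank is given for them. These log2 fold changes are relative to the spike-ins. With TMM, which scales to the bulk of the miRNAs, the median moved to -0.59 and the 4 members had positive values of 5.56 to 8.81.

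In UC-dFBS, 90.8% of the miRNAs were called, all lower, with a median log2 fold change of -2.70. The values of hsa-miR-203a (-0.87 ± 0.79) and hsa-miR-205-5p (-0.99 ± 1.23) lay above the median, and both were positive with TMM. Those of hsa-miR-184 (-2.93 ± 1.42) and hsa-miR-31-5p (-3.31 ± 1.38) lay below it, by less than their SE. In SBI-dFBS, 45.4% of the miRNAs were called, 44.2% lower and 1.23% higher, with a median of -1.70. hsa-miR-205-5p had 0.43 ± 1.12, hsa-miR-203a had -0.03 ± 0.78 and hsa-miR-184 had -2.82 ± 1.44. The 3 comparisons share the FBS samples. The values of hsa-miR-205-5p depended on FBS-1 and FBS-2, which differed most in it. Without FBS-2 its log2 fold change was 2.15 in UF-dFBS, 0.84 in UC-dFBS and 2.26 in SBI-dFBS, and without FBS-1 it was -0.35, -1.67 and -0.24.

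Both samples of the depleted medium lay below both FBS samples for 3 of the 4 members in UC-dFBS and in UF-dFBS, against 98.2% and 98.8% of all miRNAs tested. In SBI-dFBS this held for hsa-miR-184 and hsa-miR-31-5p, against 74.8% of all. For hsa-miR-184 it rests in SBI-dFBS and UC-dFBS on 1 count per sample against 2 in FBS-2. The interval of hsa-miR-31-5p in SBI-dFBS-2 reached 0.977, above the 0.939 of FBS-2. The exception in each medium was hsa-miR-205-5p, joined by hsa-miR-203a in SBI-dFBS.

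**Figure D5:**
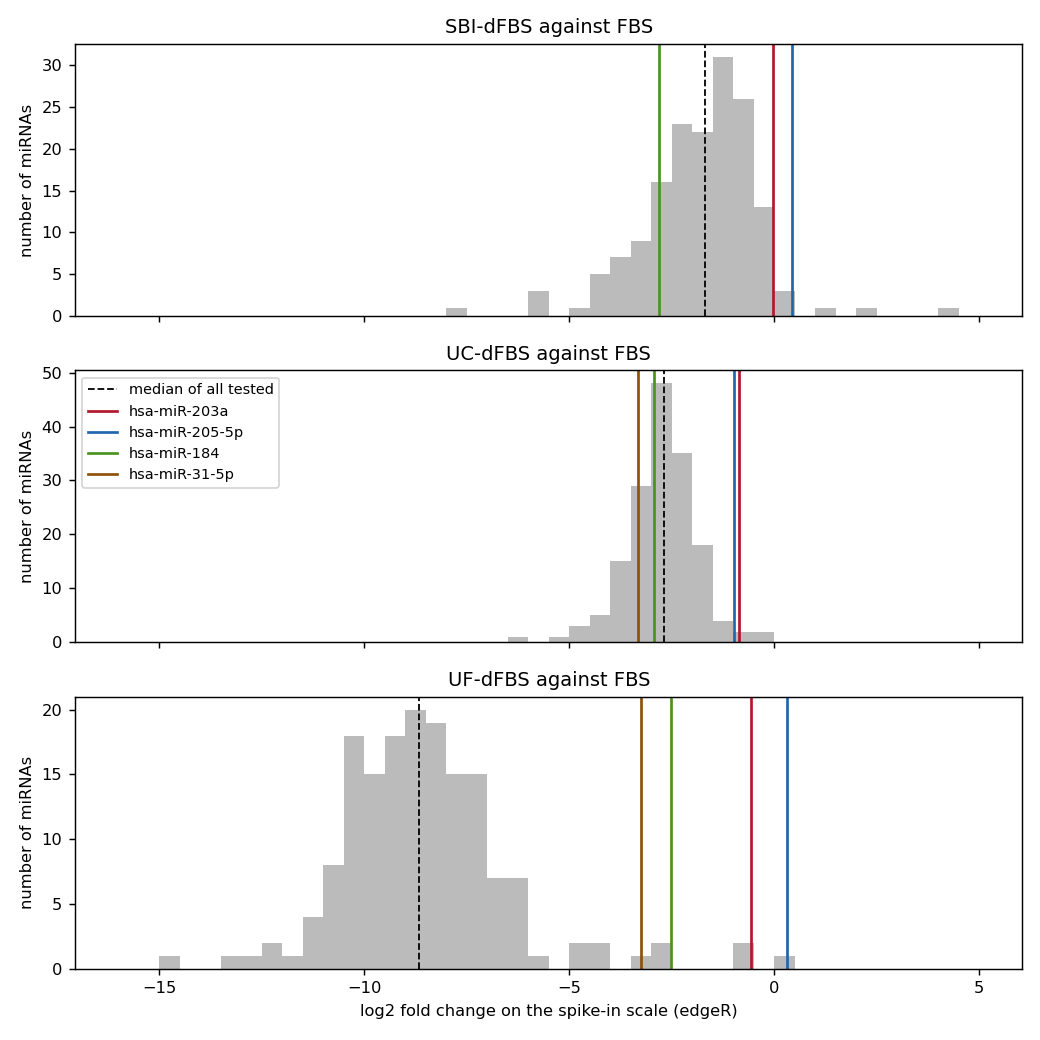
Number of miRNAs by log2 fold change on the spike-in scale (edgeR) in SBI-dFBS, UC-dFBS and UF-dFBS against FBS, for the 163 miRNAs tested. Coloured lines mark the epithelial miRNAs and dashed lines the median. hsa-miR-31-5p is not drawn for SBI-dFBS, where its counts were 0. In UF-dFBS all 4 stand to the right of the median of -8.67.

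The suppliers were compared in the 6 samples made from the Sigma and Gibco sera, with the medium as a term and the 105 miRNAs that reached 10 counts in 3 samples or more. Only hsa-miR-203a of the 4 members passed this filter. Its log2 fold change of Gibco against Sigma was -0.46 ± 0.38 (SE), close to the median of -0.62, where 37.1% of the miRNAs were called, 35.2% lower and 1.9% higher. Sample by sample, the Sigma serum had 1.31 times the hsa-miR-203a of the Gibco serum in FBS (0.803 to 2.12), 1.09 times in UC-dFBS (0.581 to 2.05) and 1.64 times in UF-dFBS (1.26 to 2.14), against 2.52, 2.02 and 1.95 times for all miRNAs.

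The other miRNAs known from epithelia were followed to see whether they kept an even level as well. The miR-200 family, which holds epithelial cells in their state by repressing ZEB1 and ZEB2, had 6 of 9 listed arms in the table and 1 of them, hsa-miR-200a-3p, passed the filter. FBS-1 had 14 counts of it and FBS-2 had 21, the SBI-dFBS samples had 8 and 1, the UC-dFBS samples 2 and 1, each UF-dFBS sample 1, and StemPRO had 3. hsa-miR-200a-3p was lower in UF-dFBS than in FBS (log2 fold change -6.36 ± 1.26, adjusted p = 6.80e-07, edgeR's quasi-likelihood test with Benjamini-Hochberg adjustment) and in UC-dFBS (-3.61 ± 1.22, adjusted p = 0.00542). In SBI-dFBS the difference missed the threshold (-2.14 ± 1.07, edgeR adjusted p = 0.0848). hsa-miR-200a-3p passed the filter through the FBS samples alone, so its calls are not independent of the filter. The fall in UF-dFBS is relative to the spike-ins. Under other settings the edgeR or DESeq2 adjusted p ranged from 5.02e-10 to 0.392 for UF-dFBS, where TMM gave a log2 fold change of 1.89, and from 0.000645 to 0.896 for UC-dFBS. Without UC-dFBS-2 the edgeR adjusted p for UC-dFBS was 0.0808.

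Of the 5 defining epithelial markers of the family, 4 were listed in the table, and none of hsa-miR-200b-3p, hsa-miR-200c-3p and hsa-miR-141-3p had more than 1 count in a UF-dFBS sample. The summed spike-in normalized count of the family was 4.13 to 4.29 in FBS, 0.265 to 1.77 in SBI-dFBS, 0.440 to 0.459 in UC-dFBS, 0.0362 to 0.0833 in UF-dFBS and 0.0648 in StemPRO. Against the 3.12 to 8.21 of hsa-miR-203a, the family was thus of similar level in FBS and far below in UF-dFBS and StemPRO. hsa-miR-182-5p, hsa-miR-183-5p and hsa-miR-375, found in sensory, secretory and endocrine epithelia, had together 12 counts or fewer in any sample and were not tested. Their sum was 0.826 to 1.61 in FBS, 0.0416 to 0.0724 in UF-dFBS and 0.0370 in StemPRO. Of the gut and kidney epithelial miRNAs, 2 of 4 were tested, and both fell in UC-dFBS and UF-dFBS. Of all miRNAs tested, 90.8% and 98.2% were called lower there. hsa-miR-192-5p had log2 fold changes of -2.21 ± 0.63 (edgeR adjusted p = 0.00113) in UC-dFBS and -7.99 ± 0.83 (edgeR adjusted p = 6.61e-20) in UF-dFBS, and values of 0.60 and 0.85 with TMM.

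Of the opposite arms of the 4 hairpins, 2 were listed in the table. hsa-miR-31-3p had 1 count, in FBS-2, and hsa-miR-205-3p had 1 count, in StemPRO, in all 9 samples together, beside 35 counts of hsa-miR-31-5p and 168 of hsa-miR-205-5p.

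The summed markers of blood and liver were far lower in UF-dFBS and StemPRO than in FBS. The 4 red-cell markers, led by hsa-miR-451a and hsa-miR-486-5p, summed to 245 to 286 spike-in normalized counts in FBS, 131 to 176 in SBI-dFBS, 15.5 to 19.3 in UC-dFBS, 0.634 to 0.916 in UF-dFBS and 0.296 in StemPRO. All 4 were tested and fell in UC-dFBS and UF-dFBS, where 90.8% and 98.2% of all miRNAs tested were called lower. None was called in SBI-dFBS, where 44.2% of all were called lower. The 5 white-cell and platelet markers were called lower by edgeR in all 3 depleted media, whereas DESeq2 on the same scale called 4 of 5 in SBI-dFBS and in UC-dFBS. DESeq2 called 59 and 130 of all 163 miRNAs in these 2 media. One of the 5 markers, hsa-miR-223-5p, passed the filter through the FBS samples alone, so its calls are not independent of the filter. The 5 markers summed to 1170 to 3673 in FBS, 0.791 to 1.09 in UF-dFBS and 0.740 in StemPRO. The liver miRNA hsa-miR-122-5p, the 1 of 2 liver markers that was tested, fell in UF-dFBS and was not called by edgeR in the other media (DESeq2 adjusted p = 0.0386 in UC-dFBS), and the liver markers summed to 4817 to 19403 in FBS, 16.2 to 46.0 in UF-dFBS and 0.0648 in StemPRO. These falls are relative to the spike-ins, and with TMM hsa-miR-486-5p (0.45) and hsa-miR-122-5p (0.39) had positive log2 fold changes in UF-dFBS and hsa-miR-223-3p (0.15) and hsa-miR-223-5p (0.0088) in UC-dFBS. With TMM, edgeR called 0 of the 4 red-cell markers in UC-dFBS and UF-dFBS, and 2, 0 and 1 of the 5 white-cell and platelet markers in SBI-dFBS, UC-dFBS and UF-dFBS. In StemPRO the level of hsa-miR-203a was above the summed level of each of these lists, and in FBS far below.

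The miRNAs most like each member were those with the highest Pearson correlation of log2 spike-in normalized counts (pseudocount 0.1) over the 9 samples, out of 162 compared. For hsa-miR-205-5p the highest values were 0.19 with hsa-miR-133a-3p, 0.18 with hsa-miR-203a and 0.13 with hsa-miR-431-5p, so that no miRNA followed its pattern closely. For hsa-miR-203a they were 0.80 with hsa-miR-144-5p, 0.79 with hsa-miR-136-3p and 0.76 with hsa-miR-769-5p, none of which had more than 2 counts in a UF-dFBS sample. hsa-miR-184 was most like hsa-miR-196a-5p (0.75), hsa-miR-31-5p (0.74) and hsa-miR-19a-3p (0.72), all high in FBS-1. hsa-miR-31-5p was most like hsa-miR-421 (0.85), hsa-miR-139-5p (0.83) and hsa-miR-29b-3p (0.82). The 9 points share the spike-in factors, sera and depth, and the values are a description.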

How the data were processed

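Small RNA of 9 media samples was isolated with the exoRNeasy kit and sequenced after preparation with the QIAseq miRNA kit, whose adapters carry unique molecular indices (UMIs). The authors trimmed reads with cutadapt 1.11, collapsed reads of the same insert and UMI, mapped them with Bowtie2 2.2.2 to miRBase and then to GRCh37, a human build (tools and build per the submitters' processing notes), and deposited raw counts per miRNA. They also deposited spike-in normalized counts, a signal in which each count was divided by the slope of spike-in counts on spike-in amount. The ratio of the 2 deposited values was constant within each sample, with a largest deviation of 1.98e-06 percent. Reads of the spike-ins were not analysed here, so the error of the factors is unknown.

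The members and the lists of other miRNAs were chosen with earlier results of these data known. The miRNAs named were the 4 members, the listed miRNAs and the 3 miRNAs most like each member. The lists were the opposite arms, the miR-200 family, other epithelial, gut and kidney epithelial, red-cell, liver, and white-cell and platelet miRNAs. Groups and suppliers came from the sample labels. Tests were run in R 4.3.3 with edgeR 4.0.16, by its quasi-likelihood test at a threshold of 0.05 after Benjamini-Hochberg adjustment, with library sizes set to the spike-in factors and without TMM, on the 8 FBS-based samples and the miRNAs that had 10 counts or more in 2 samples or more. P-values measure the spread between these samples. StemPRO was not tested. Levels, intervals and shares were computed in python 3.11.15 with scipy 1.17.1. Alternatives were TMM, all small ncRNA counts as library size, no filter, DESeq2 1.42.0 with spike-in size factors, leaving out each sample, and the supplier as replicate block.

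The numbers 1 and 2 of FBS, UC-dFBS and UF-dFBS mark a shared serum in the labels. The difference between sample 1 and sample 2, per miRNA, correlated between FBS and UC-dFBS (Pearson 0.502, across 163 miRNAs, which are not independent replicates), less between FBS and UF-dFBS (0.176), and hardly for the pair UC-dFBS and UF-dFBS (0.0234).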

Additional observations from a re-analysis of the deposited data

Results flagged for a closer look

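For hsa-miR-205-5p the ratio to FBS was above 1 in the Sigma serum and below 1 in the Gibco serum, with both depletion methods. In the Sigma serum, UC-dFBS had 2.22 times (0.178 to 117) and UF-dFBS 5.44 times (0.941 to 218) the FBS level. In the Gibco serum, UC-dFBS had 0.243 times (0.0255 to 1.17) and UF-dFBS 0.621 times (0.265 to 1.57) the FBS level. Each of these intervals held 1, and both methods were set against the same FBS samples. Each serum gave 1 sample per medium, the ratios of the Sigma serum rest on 1 count in FBS-1, and the difference between the sera was not tested.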

How the results depend on the processing

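The scale decided most values. With TMM, 10 miRNAs were called in SBI-dFBS, 0 in UC-dFBS (9 at an unadjusted p under 0.05, and 130 with DESeq2 on the spike-in scale) and 22 in UF-dFBS. The log2 fold changes in SBI-dFBS, UC-dFBS and UF-dFBS were then 1.70, 1.74 and 8.17 for hsa-miR-203a, 1.98, 1.31 and 8.81 for hsa-miR-205-5p, and -0.81, -0.20 and 6.34 for hsa-miR-184, and those of hsa-miR-31-5p were -0.68 for UC-dFBS and 5.56 for UF-dFBS. With all small ncRNA counts as library size, edgeR called 2, 0 (31 at an unadjusted p under 0.05) and 99 miRNAs. In UF-dFBS hsa-miR-203a then had 3.67, hsa-miR-205-5p 3.96, hsa-miR-184 3.05 and hsa-miR-31-5p -1.79, in SBI-dFBS hsa-miR-203a had -2.44 and hsa-miR-205-5p -2.34, and in UC-dFBS hsa-miR-205-5p had -2.29. The Gibco against Sigma value of hsa-miR-203a was -0.028 with TMM and 3.13 with all counts. These scales replace the spike-ins by the bulk of the miRNAs or by all small ncRNA counts, and which of them is right was not tested. The highest over lowest ratio was 12.8, 62, 11 and 5 on raw counts, and 480, 3914, 463 and 103 on shares, for hsa-miR-203a, hsa-miR-205-5p, hsa-miR-184 and hsa-miR-31-5p. For hsa-miR-31-5p it used the floor of 3 counts for all counts below 3. Without a filter, 277 of 419 miRNAs were called in UF-dFBS. DESeq2 called 59, 130 and 158.

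Leaving out each sample gave 8 to 78 calls in SBI-dFBS (8 without SBI-dFBS-1, 23 without FBS-1, 43 without SBI-dFBS-2) and 56 to 151 in UC-dFBS (56 without UC-dFBS-2, 87 without FBS-1). The log2 fold change of hsa-miR-205-5p spanned -0.24 to 2.26 for SBI-dFBS, -1.67 to 0.84 for UC-dFBS and -0.35 to 2.15 for UF-dFBS. The ratio of hsa-miR-184 ranged from 2.43 to 20.5. That of hsa-miR-31-5p, with all counts below 3 raised to the floor of 3 counts, ranged from 7.52 to 18.2. Without FBS-1 or UF-dFBS-1, hsa-miR-184 and hsa-miR-31-5p did not pass the filter and have no fold change, and likewise hsa-miR-205-5p without either UF-dFBS sample. With pseudocount 1, 1 of the 3 miRNAs most like hsa-miR-31-5p was shared. In the paired fit with the supplier as replicate block, 154 of 158 miRNAs were called for UC-dFBS and 155 for UF-dFBS (136 and 155 in the same 6 samples without the block, a fit added after the data were seen), and no member changed direction. Of 140 fold changes of members under alternatives, 15 changed sign, 6 of 12 with TMM, 4 of 12 with all counts and 5 of 78 without a sample. Counts of 0 to 11 limit hsa-miR-184, hsa-miR-205-5p and hsa-miR-31-5p in most FBS-based samples.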
